A study of Mus musculus with 8 samples.

Results

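The genes of the Notch pathway described here were the receptors *Notch1*, *Notch2* and *Notch3*, the protease gene *Adam10*, the inhibitor gene *Numb*, the transcription factor gene *Rbpj* and the target genes *Dtx1* and *Hes1*. They were chosen by symbol, and all 8 were found among the 55335 genes of the count table. RNA was sequenced from CD8+ tumor-infiltrating lymphocytes (TILs), gated on CD45.2, TCRβ, CD8, CD44 and PD-1 and taken from tumors of MC38, a mouse colon carcinoma line implanted under the skin. The 4 wildtype (WT) samples came from Lsd1f/f mice and the 4 knockout (KO) samples from littermates that also carried Cd4-Cre (Cd4-Cre+Lsd1f/f). All mice were C57BL/6, aged 6 to 10 weeks, and the labels name no treatment. Cd4-Cre deletes the floxed gene in developing T cells, CD4+ T cells included, so the deletion was not limited to the sorted cells. Each WT sample pooled cells of 2 mice, each KO sample came from 1 mouse, and 10000 to 20000 cells were sorted per sample. The protocol gives day 18 after implantation and the series description 14 days. The WT columns of the count table are named S1 to S4 here, and the KO columns S5 to S8.

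Notch receptors sit in the plasma membrane and are activated by Delta-like and Jagged ligands on neighboring cells. Ligand binding exposes the receptor to ADAM10 and then to a protease within the membrane, and the freed intracellular domain enters the nucleus, where it binds RBPJ and recruits Mastermind-like proteins and the acetyltransferases p300 and CBP. Without it, RBPJ is bound by corepressors, among them L3MBTL3, a protein known to bring the demethylase LSD1, the product of *Kdm1a* that is deleted here, to RBPJ sites. In T cells Notch is known for fixing the T lineage in the thymus and for supporting effector differentiation of activated CD8+ T cells.

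The promoters of the member that was higher in KO, of the gene for the DNA-binding partner, and of a pair of target genes in which S5 to S7 lay below and S8 above every WT sample are shown first. Each sequence is the 250 bases before the RefSeq start site on GRCm38.p6, written 5′ to 3′ on the strand of the gene, and capitals mark matches to TGGGAA, the core bound by RBPJ, or to its reverse complement TTCCCA. *Notch1* lies at chr2:26503823-26504072 on the minus strand, *Rbpj* (the first of 2 start sites) at chr5:53590096-53590345 on the plus strand, *Dtx1* at chr5:120711670-120711919 on the minus strand and *Nrarp* at chr2:25180508-25180757 on the plus strand.
Notch1: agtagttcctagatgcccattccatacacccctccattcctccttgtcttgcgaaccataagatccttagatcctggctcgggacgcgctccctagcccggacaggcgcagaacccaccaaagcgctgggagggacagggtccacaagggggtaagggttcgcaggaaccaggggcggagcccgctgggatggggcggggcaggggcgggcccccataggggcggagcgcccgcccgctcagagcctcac
Rbpj: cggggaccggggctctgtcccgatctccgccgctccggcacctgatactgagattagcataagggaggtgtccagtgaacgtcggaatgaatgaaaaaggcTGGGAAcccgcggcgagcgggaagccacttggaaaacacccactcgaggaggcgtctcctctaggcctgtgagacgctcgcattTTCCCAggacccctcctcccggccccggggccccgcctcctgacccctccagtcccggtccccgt
Dtx1: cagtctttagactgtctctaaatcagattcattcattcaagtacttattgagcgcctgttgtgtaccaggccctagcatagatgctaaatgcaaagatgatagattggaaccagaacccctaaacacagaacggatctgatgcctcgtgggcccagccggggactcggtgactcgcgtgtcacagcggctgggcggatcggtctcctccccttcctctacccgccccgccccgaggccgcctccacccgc
Nrarp: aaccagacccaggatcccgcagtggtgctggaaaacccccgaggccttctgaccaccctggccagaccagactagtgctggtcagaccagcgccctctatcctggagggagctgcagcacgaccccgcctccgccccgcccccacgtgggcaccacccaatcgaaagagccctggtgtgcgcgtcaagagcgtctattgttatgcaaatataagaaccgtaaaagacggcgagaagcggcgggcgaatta
The *Rbpj* window held the core 149 bases before the start on the same strand and 65 bases before it on the opposite strand. A window was found for 7 of the 8 members, all but *Hes1*, and *Rbpj* was the 1 member with a match. Of all 32851 promoter windows of the same length, 21.6% held the core on either strand and 2.77% held it at least 2 times. A match is a description of the letters and not a measured binding site, and absence of a match says only that these letters were not in this window. The windows of *Notch1*, *Rbpj* and *Dtx1* lie inside the annotated spans of these genes. The *Notch1* span reaches upstream to 26516663 and the *Rbpj* span to 53466152, and the bases before those ends were not searched.

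The measure throughout is CPM, the counts of a gene relative to all counts on genes in the sample, after scaling with TMM factors, and a fold change is KO over WT from edgeR's quasi-likelihood fit over 15378 genes with enough counts. A gene was called at a fold change above 1.5 with a Benjamini-Hochberg adjusted p under 0.01. This rule called 753 genes (4.9%), of which 447 (2.91%) were higher and 306 (1.99%) were lower in KO. All 8 members passed the filter on low counts. *Notch1* was called higher and no member was called lower, so 1 of 8 members (12.5%) was called. The median log2 fold change was 0.14 over the members and -0.01 over all genes tested. *Notch1* was also the 1 member whose KO and WT samples did not overlap, whereas groups did not overlap in 17.3% of all genes tested, with KO above WT in 8.99% and below it in 8.27%.

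Library totals were 11657807 to 30295406 counts, with S8 the deepest, and 3 counts, the limit that a count of 0 allows, correspond to 0.105 to 0.25 CPM. The 12 pairs of samples within a group differed by more than sampling noise, so no library was counted as a copy of another. The CD8 T cell markers *Cd8a*, *Cd3e* and *Pdcd1* were abundant in every sample, with 9 such markers summing to 5427 to 5856 CPM in WT and 5113 to 5702 CPM in KO. Of these 9, *Cd44*, a gene of the sort gate, was called higher in KO (398 to 487 CPM in WT, 668 to 950 CPM in KO). *Cd8b1* and *Cd3g* were lower in every KO sample than in any WT sample but were not called, and the rest overlapped. Markers of other cells also moved with the groups. Of 16 macrophage and myeloid markers tested, 13 were called lower in KO, and the 17 listed summed to 471 to 1398 CPM in WT and 227 to 324 CPM in KO. The 4 CD4 T cell markers summed to 40.0 to 56.8 CPM in WT and 121 to 155 CPM in KO. Most of each sum was *Zbtb7b* (34.4 to 49.8 CPM in WT, 92.7 to 108 CPM in KO), which was called higher, as was *Cd40lg*. *Cd4* itself was at 1.86 to 6.85 CPM in WT and 7.25 to 26.1 CPM in KO and was not called, nor was *Foxp3*. Epithelial *Krt8* and *Krt19*, pericyte *Pdgfrb* and endothelial *Emcn* had no count in any sample. The other genes of these 3 lists were at 3.58 CPM or less in every sample, with 2 exceptions. Endothelial *Pecam1*, also an adhesion gene of leukocytes, was called higher in KO (20.2 to 26.2 CPM in WT, 56.0 to 76.9 CPM in KO, log2 fold change 1.48), and epithelial *Cdh1* was at 13.4 to 28.8 CPM in WT and up to 31.6 CPM in KO and was not called. In bulk RNA, a change in the share of cells that express a gene and a change of its RNA per cell cannot be told apart.

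*Kdm1a*, the gene targeted in the KO mice, was at 44.5, 47.1, 42.6 and 44.8 CPM in S1 to S4 and at 25.2, 30.5, 32.0 and 34.7 CPM in S5 to S8. All KO values were under the lowest WT value, with counts taken over the whole gene, which include exons other than the floxed ones. The log2 fold change of -0.55 (SE 0.14, adjusted p = 0.0163) missed the call. *Luzp1* overlaps *Kdm1a* on the opposite strand without sharing exon bases in the annotation used, and whether counting used strand is not given in the sources used here.

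*Notch1* encodes the receptor that drives T lineage commitment. The gene (ENSMUSG00000026923.15) lies on chromosome 2 of GRCm38 from 26457903 to 26516663 on the minus strand. Its levels were 472, 384, 393 and 397 CPM in S1 to S4 and 738, 695, 684 and 695 CPM in S5 to S8. The lowest KO sample stood well above the highest WT sample, and the 4 KO samples lay close together, with S1 the highest of the WT samples. The group means were 411 ± 40.6 CPM in WT and 703 ± 23.9 CPM in KO (SD, n = 4 each). This was a log2 fold change of 0.77 (SE 0.09, approximate 95% interval 0.55 to 1.00) and a fold change of 1.71, with adjusted p = 2.71e-05. An exact two-sided permutation test over the 70 arrangements of the samples gave p = 0.0286, which is the smallest p this design can give. *Notch1* passed the call with any one sample left out, with a log2 fold change of 0.74 to 0.85, and under all other scalings, filters and tests of no change. It was not called by the stricter test for a fold change above 1.5 itself (edgeR's glmTreat, adjusted p = 0.156). The lower myeloid and higher CD4 marker sums of the KO samples moved with it, and their part in the difference was not tested.

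The other receptors did not pass the test. *Notch2*, a receptor shared with myeloid cells and B cells, was at 255, 174, 180 and 171 CPM in S1 to S4 and at 237, 187, 204 and 258 CPM in S5 to S8. The ranges overlapped, and S1 stood apart from the other WT samples as it did for *Notch1*. Its log2 fold change was 0.18 (SE 0.14, approximate 95% interval -0.15 to 0.51, adjusted p = 0.452). Without S1 it was 0.34 with adjusted p = 0.072. Same-strand genes of uncertain status that overlap *Notch2*, *Gm42819* and *Gm42820*, held 4.39% and 3.63% as many counts as *Notch2*, so a small share of reads could have been assigned to either.

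*Notch3* is a receptor known mainly from smooth muscle and pericytes. It had 137 counts over the 8 samples, and its levels were 1.45, 0.544, 1.38 and 0.988 CPM in WT and 0.590, 0.806, 1.08 and 1.44 CPM in KO. These values were low and overlapped fully. The log2 fold change was -0.14 with an approximate 95% interval of -2.06 to 1.77, so a difference in either direction was not detectable at this depth. The antisense gene *Gm17276* held 14.6% as many counts as *Notch3*. *Notch4*, the remaining receptor, which is known from endothelium, was at 0.576 to 2.96 CPM in WT and 0.721 to 3.30 CPM in KO, with a log2 fold change of -0.03 (adjusted p = 0.988).

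Dividing *Notch2* by *Notch1* within each sample, on values per kilobase of exon, set the 2 receptors against each other. *Notch2* was at 71.4%, 59.8%, 60.6% and 57.0% of *Notch1* in S1 to S4 and at 42.3%, 35.6%, 39.4% and 49.0% in S5 to S8. The KO percentages all lay under the lowest WT percentage, with means of 62.2% ± 6.33 in WT and 41.6% ± 5.66 in KO (SD, n = 4 each, exact two-sided permutation test on the log2 ratio, p = 0.0286). The ratio does not depend on the scaling of the libraries, and it carries the *Notch1* difference described above.

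**Figure D1:**
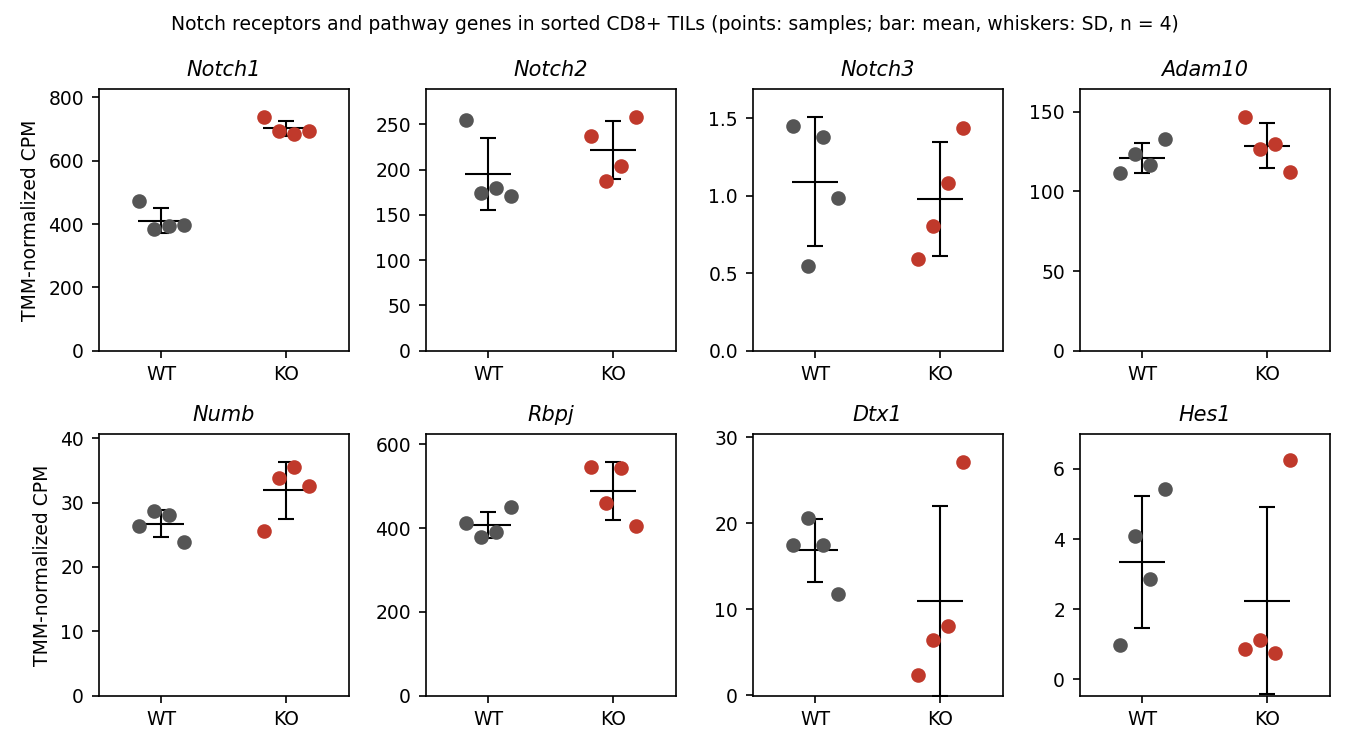
TMM-normalized CPM of the 8 members in each sample, 1 panel per gene with its own axis, WT in gray and KO in red. Points are samples in the order S1 to S4 and S5 to S8, the bar is the mean and the whiskers are 1 SD (n = 4), which reach below 0 for Hes1 and Dtx1 in KO. Notch1 was the 1 member whose groups did not overlap (384 to 472 against 684 to 738 CPM), and 1 KO sample, S8, was above all others for Dtx1 and Hes1.

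*Adam10*, whose product makes the first cut in a receptor that has bound its ligand, was at 112 to 133 CPM in WT and 112 to 147 CPM in KO. The ranges nearly coincided, and the log2 fold change was 0.09 (SE 0.11, approximate 95% interval -0.17 to 0.35, adjusted p = 0.69). *Numb* encodes an endocytic adaptor that inhibits Notch. It was at 26.4, 28.7, 28.0 and 23.9 CPM in S1 to S4 and at 25.6, 33.9, 35.6 and 32.6 CPM in S5 to S8. The KO samples other than S5 were above every WT sample, and the log2 fold change of 0.25 (SE 0.15, approximate 95% interval -0.13 to 0.63) had an adjusted p of 0.347.

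*Rbpj*, the gene of the DNA-binding partner whose promoter window held the core it binds, was at 412, 380, 391 and 449 CPM in S1 to S4 and at 547, 460, 544 and 405 CPM in S5 to S8. S5, S6 and S7 were above every WT sample and S8 was inside the WT range. The means were 408 ± 30.7 CPM in WT and 489 ± 69.1 CPM in KO (SD, n = 4 each), and the log2 fold change of 0.26 (SE 0.11, approximate 95% interval 0.00 to 0.52) was not called (adjusted p = 0.136). Without S8 it was 0.34 with adjusted p = 0.0397, still under the fold threshold.

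The target genes among the members were spread widely over the KO samples. Each WT sample pooled 2 mice and each KO sample was 1 mouse, so the spreads of the groups are not directly comparable. *Dtx1* encodes Deltex, a ubiquitin ligase that is also a direct Notch target in lymphocytes. It was at 17.5, 20.6, 17.5 and 11.8 CPM in S1 to S4 and at 2.36, 6.37, 8.08 and 27.1 CPM in S5 to S8. S5, S6 and S7 were below every WT sample and S8 was above every WT sample. Over all samples the log2 fold change was -0.59 (SE 0.47, approximate 95% interval -1.75 to 0.56, adjusted p = 0.496). Without S8 it was -1.60 with adjusted p = 0.00777 and *Dtx1* was called lower in KO, so this sample decided the call.

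*Hes1*, the gene of a transcriptional repressor that is the best known Notch target in many tissues, was at 0.986, 4.08, 2.85 and 5.43 CPM in S1 to S4 and at 0.852, 1.13, 0.75 and 6.25 CPM in S5 to S8. S8 was again the highest of all 8 samples, and the other KO samples were near or below the lowest WT sample. Over all samples it differed by a log2 fold change of -0.53 (SE 0.70, approximate 95% interval -2.25 to 1.19, adjusted p = 0.716), and without S8 it was -1.86 with adjusted p = 0.124.

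*Nrarp*, which encodes a feedback inhibitor of the Notch transcription complex and is no member, is named because its values resembled those of *Dtx1*. It was at 11.1, 17.3, 19.1 and 9.96 CPM in S1 to S4 and at 9.17, 5.89, 7.83 and 29.3 CPM in S5 to S8, with a log2 fold change of -0.12 (adjusted p = 0.907) that was -0.91 without S8 (adjusted p = 0.0617). S5 to S7 lay below and S8 above every WT sample, as for *Dtx1*. This pattern was found in 58 of the 15378 genes tested (0.377%), and S8 was the highest of the 8 samples in 1380 genes (8.97%), among them *Dtx1*, *Hes1* and *Nrarp*. The pattern was noticed in these values and was not tested. S8 also had the lowest *Pdcd1*, which encodes PD-1, at 306 CPM against 458 to 601 CPM in S5 to S7, and the highest *Kdm1a* of the KO samples. The part of depth or of these differences in the S8 values was not tested.

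**Figure D2:**
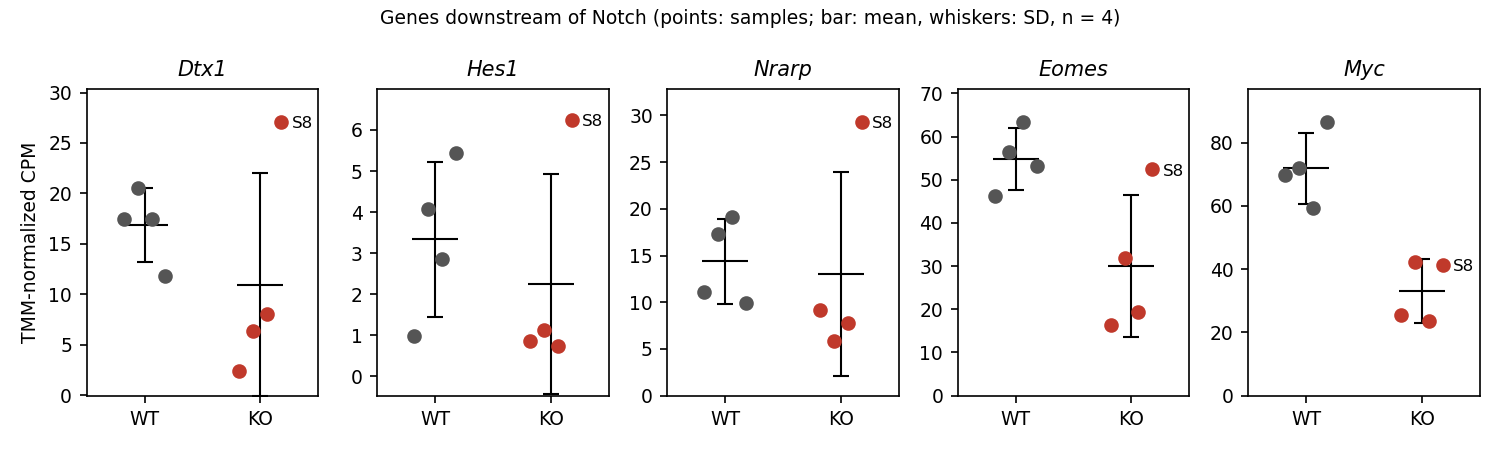
TMM-normalized CPM of Dtx1, Hes1, Nrarp, Eomes and Myc in each sample, 1 panel per gene with its own axis, WT in gray and KO in red. Points are samples, the bar is the mean and the whiskers are 1 SD (n = 4). The KO sample S8 was the highest of all 8 samples for Dtx1, Hes1 and Nrarp and lay inside the WT range for Eomes, while for Myc all 4 KO samples were below the WT samples.

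Levels of different genes were compared per kilobase of exon, as RPKM. In WT the order was *Rbpj* (32.0), *Notch1* (28.9), *Adam10* (24.7), *Notch2* (18.1), *Numb* (6.83), *Dtx1* (3.19), *Hes1* (1.64) and *Notch3* (0.135 RPKM). Neighbors among the first 4 overlapped in their range over samples, and so did *Dtx1* and *Hes1*, whereas *Notch2* and *Numb*, *Numb* and *Dtx1*, and *Hes1* and *Notch3* did not overlap. In KO *Notch1* was first at 49.4 RPKM (48.1 to 51.9), clear of *Rbpj* at 38.4 RPKM (31.8 to 42.9), and the order of the rest was as in WT. Of the neighbors in KO, *Adam10* and *Notch2* overlapped, as did *Dtx1* and *Hes1*. All genes held the same ranks by TPM.

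Of 85 further pathway genes listed by role, 73 passed the filter, with a median log2 fold change of 0.05. Of these, 5 were called higher and 3 were called lower (11%, against the 4.9% of all genes given above). The list of genes responsive to Notch in T cells held 2 of the higher and all 3 of the lower calls, 38.5% of its 13 tested genes. The lists, like the members, were chosen with earlier results of these data known, so these shares are descriptions only. The remaining calls were 1 of 8 coactivator genes and 2 of 15 corepressor genes, and the other lists had none. None of the 3 ligand genes tested was called. *Jag2*, a Jagged ligand, was at 4.52, 3.05, 4.15 and 3.29 CPM in S1 to S4 and at 2.10, 1.29, 1.5 and 1.33 CPM in S5 to S8. The groups did not overlap, but the log2 fold change of -1.27 (SE 0.49) had an adjusted p of 0.11. The ligand genes *Dll3*, *Dll4*, *Dlk1* and *Dlk2* were under the filter.

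None of the 14 genes for receptor glycosylation and cleavage was called. *Furin*, the protease that cuts the receptor on its way to the membrane, was at 113 ± 4.66 CPM in WT and 158 ± 15.7 CPM in KO (SD, n = 4 each). Its log2 fold change of 0.48 (adjusted p = 0.00426) passed the p threshold but not the fold threshold. *Lfng*, a glycosyltransferase that sets ligand preference, had a log2 fold change of 0.32 with adjusted p = 0.0492 and was singled out after its value was seen.

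None of the 5 ligand ubiquitin ligase genes tested and none of the 11 endocytosis and ubiquitin regulators was called by edgeR. The sixth listed ligase gene, *Neurl1a*, was under the filter at 0.348, 1.74, 0.977 and 3.37 CPM in S1 to S4 and at 0, 0, 0 and 0.14 CPM in S5 to S8. DESeq2 called it lower in KO, whereas edgeR with no filter on low counts did not call it. The smallest adjusted p was that of *Neurl3* in the first list (log2 fold change 0.35, adjusted p = 0.0187) and of *Nedd4* in the second (log2 fold change -0.36, adjusted p = 0.0564).

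Several nuclear cofactor genes differed between the groups. Of 8 coactivator genes, *Ep300*, which encodes the acetyltransferase p300, was called higher. It was at 293, 249, 268 and 257 CPM in S1 to S4 and at 428, 414, 419 and 409 CPM in S5 to S8. The KO values lay within a narrow range above the highest WT value. The log2 fold change was 0.65 (SE 0.09, adjusted p = 0.00011), a fold change of 1.57, and, as for *Notch1*, the test for a fold change above 1.5 itself did not call it (glmTreat, adjusted p = 0.832). *Crebbp*, the gene of the related CBP, had a log2 fold change of 0.32 (adjusted p = 0.0396), under the fold threshold, and was named after its value was seen. *Maml1*, *Maml2* and *Maml3*, the Mastermind-like genes, were not called.

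Of 15 corepressor genes, 2 were called higher and none lower. *L3mbtl3*, whose product competes with the Notch intracellular domain for RBPJ, was at 48.4, 30.1, 36.8 and 25.1 CPM in S1 to S4 and at 132, 136, 133 and 116 CPM in S5 to S8. The lowest KO sample was above the highest WT sample by a wide gap. It rose by a log2 fold change of 1.88 (SE 0.16, adjusted p = 8.74e-07), a fold change of 3.68.

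*Tle1*, the gene of a Groucho-family corepressor that HES proteins and other factors recruit, was at 5.92, 6.42, 4.64 and 6.58 CPM in S1 to S4 and at 37.7, 24.4, 29.9 and 33.5 CPM in S5 to S8. The groups were far apart. It rose by a log2 fold change of 2.41 (SE 0.20, adjusted p = 6.38e-07), a fold change of 5.32. Its paralogs *Tle2*, *Tle3* and *Tle4* had log2 fold changes of 0.29, 0.02 and -0.08 and were not called. *L3mbtl3* and *Tle1* were called with any one sample left out and by glmTreat (adjusted p = 1.5e-05 and 4.56e-06).

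**Figure D3:**
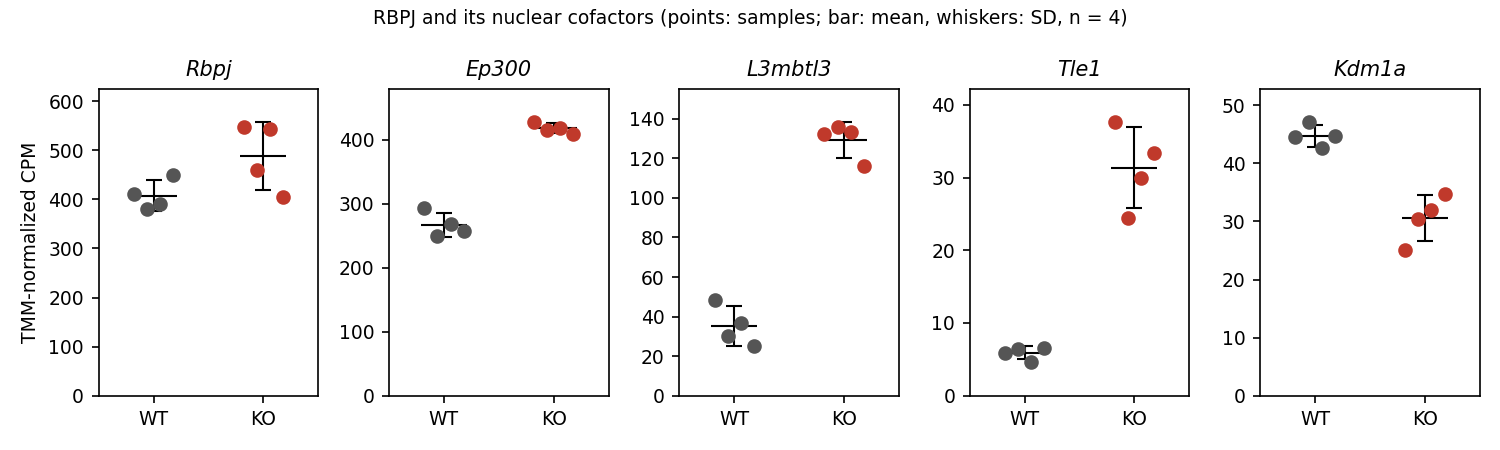
TMM-normalized CPM of Rbpj, Ep300, L3mbtl3, Tle1 and Kdm1a in each sample, 1 panel per gene with its own axis, WT in gray and KO in red. Points are samples, the bar is the mean and the whiskers are 1 SD (n = 4). Ep300, L3mbtl3 and Tle1 were higher in every KO sample (for L3mbtl3, 116 to 136 against 25.1 to 48.4 CPM), Kdm1a was lower in every KO sample, and Rbpj overlapped.

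Of 9 Hes and Hey family genes, *Nrarp* counted among them, 3 passed the filter and none was called. *Hes6* had the smallest adjusted p, with 19.9 ± 1.70 CPM in WT and 14.6 ± 2.75 CPM in KO (SD, n = 4 each) and a log2 fold change of -0.44 (adjusted p = 0.16). *Hes2* and *Heyl* had no count in any sample.

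Of 13 tested genes named as responsive to Notch in T cells, 2 were called higher and 3 lower (38.5%), so the list moved in both directions. *Il2ra* and *Il7r*, which encode receptor chains for IL-2 and IL-7, were higher in KO by log2 fold changes of 0.80 and 1.20 (adjusted p = 0.000132 and 4.65e-06). *Myc*, the growth regulator gene, was at 69.7, 72.0, 59.3 and 86.6 CPM in S1 to S4 and at 25.4, 42.4, 23.6 and 41.3 CPM in S5 to S8. The 4 KO values were all lower than the lowest WT value, with a log2 fold change of -1.11 (SE 0.19, adjusted p = 0.00084), and *Myc* was called with any one sample left out.

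*Ccnd1*, the cyclin D1 gene, was at 8.0, 11.6, 24.7 and 6.75 CPM in S1 to S4 and at 0, 3.31, 0.5 and 1.02 CPM in S5 to S8, so the groups did not overlap. The sum of myeloid markers was 471, 559, 1398 and 756 CPM in S1 to S4 and 316, 324, 227 and 230 CPM in S5 to S8. *Cd74*, which was not called, held 110 to 337 CPM of these sums in WT and 144 to 203 CPM in KO. The part of myeloid cells in the *Ccnd1* values was not tested. Its log2 fold change of -3.43 (SE 0.71, adjusted p = 0.00408) was not called by DESeq2 (adjusted p = 0.0253) or without S2, S3, S7 or S8. *Bcl2*, the survival gene, had a log2 fold change of -0.84 (SE 0.18, adjusted p = 0.005) that was not called by DESeq2 (adjusted p = 0.0195) or without S2, S3, S5, S6 or S7. *Eomes*, a T-box factor gene named after its value was seen, was at 46.2 to 63.4 CPM in WT and at 16.3, 31.8, 19.4 and 52.4 CPM in S5 to S8. Its log2 fold change of -0.86 (adjusted p = 0.0477) was not called, but without S8 it was -1.28 with adjusted p = 0.000708 and *Eomes* was called lower. With all samples kept, *Eomes* was also called lower when no filter on low counts was used (adjusted p = 1.55e-06), whereas DESeq2 gave an adjusted p of 0.135.

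**Figure D4:**
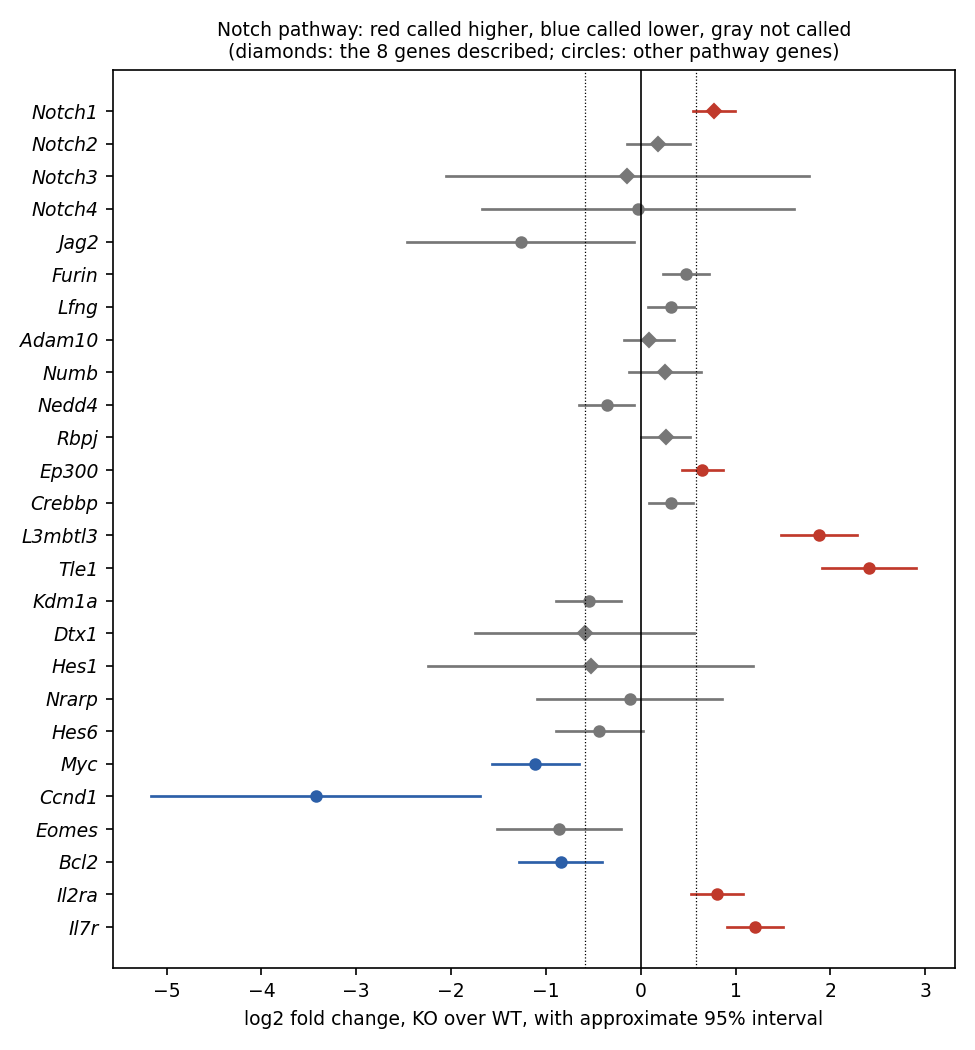
Log2 fold change of KO over WT with its approximate 95% interval for the 8 members (diamonds) and for named pathway genes (circles), ordered from receptors to targets. Red is called higher, blue is called lower, gray is not called, and dotted lines mark a fold change of 1.5. Notch1 (0.77) was the only member called, Tle1 (2.41) and L3mbtl3 (1.88) were the highest, and the intervals of Notch3, Notch4 and Hes1 were wide on both sides of 0.

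The genes whose log2 CPM over the 8 samples was most like that of *Notch1*, among 10932 genes, were *Ep300* (Pearson r 0.996), *Camsap2*, a microtubule minus-end gene (0.994), and *Wnk1*, a kinase gene (0.993). After the group means were subtracted the values were 0.917, 0.92 and 0.86. S1 was the highest and S2 the lowest WT sample for both *Notch1* and *Ep300*, and S5 was the highest KO sample for both. The other samples were not in the same order. In KO, S8 was level with S6 for *Notch1* (695 CPM each) but lowest for *Ep300* (409 CPM). The 3 genes were picked by their likeness in these same samples, so the values within groups are no separate check. *Camsap2* was called higher (log2 fold change 1.40), whereas *Wnk1* differed by a log2 fold change of 0.13 and was not called (adjusted p = 0.302). These correlations describe 8 libraries, whose scaling the genes share.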

How the data were processed

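Per the labels and the study's methods, rRNA-depleted directional libraries were aligned by the authors with STAR to GRCm38 and counted with featureCounts on GENCODE genes. The deposited table holds raw counts of 8 columns, with no normalization. The group of each column was taken from the sample names in the study's plot of samples, and replicate numbers were not matched. No column was left unused. Names, coordinates and exon lengths came from GENCODE M21 on GRCm38 (55154 of 55335 gene IDs matched), and promoter sequences from RefSeq (GRCm38.p6).

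The counts were fitted with edgeR 4.0.16 (R 4.3.3; filterByExpr, TMM, glmQLFTest, no covariates) over 15378 genes. Standard errors were obtained by dividing the size of the log2 fold change by the root of F, and approximate intervals use t with the 6 residual degrees of freedom. The model was checked on simulated data. The rule recovered 36% to 53% of genes given a log2 fold change of 1 in size. For a size of 2 it recovered 83% to 88%, so a gene that was not called can still differ. For single genes, log2 CPM (prior count 2) entered an exact two-sided permutation test. P-values of the fits set the group difference against the spread between these samples, estimated with information from all genes. The permutation p ranks the difference among the 70 arrangements, and counting limits cover counting error only. Alternatives were other scalings, filters and tests (DESeq2 1.42.0, likelihood ratio, glmTreat), GC content offsets, an adjusted p of 0.05 and leaving out each sample. The members and lists were chosen with earlier results of these data known. Named were all members, *Kdm1a*, every pathway gene called, the gene with the smallest adjusted p in each list without a call, and the 3 genes most like a called member among genes with a mean log2 CPM above 2. *Nrarp*, *Eomes*, *Lfng*, *Crebbp*, *Neurl1a* and genes named only within a count or a range were added after their values were seen.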

Additional observations from a re-analysis of the deposited data

Results flagged for a closer look

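In groups of 4 samples, 1 sample stood apart from the other 3 by more than Dixon's critical share of the range, computed on log2 CPM, in 3 of 34 groups examined, where chance gives about 1.7. *Notch1* in the WT sample S1 was at 472 CPM against 384 to 397 CPM in the other WT samples (share 0.831). *Notch2* was at 255 CPM in the same sample against 171 to 180 CPM (share 0.874). *L3mbtl3* in the KO sample S8 was at 116 CPM against 132 to 136 CPM in the other KO samples (share 0.837).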

How the results depend on the processing

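No paired analysis was possible because the columns carry no replicate numbers. *Notch1* kept its call in all 16 alternatives that gave a fold change, and no other member was called in any of them but *Dtx1* without S8. The members called higher numbered 0 under glmTreat, which also called 3 pathway genes higher and 0 lower and, of all genes, 165 higher and 130 lower. At an adjusted p under 0.05, 695 genes were higher and 551 lower. With no filter on low counts 642 genes were higher and 531 lower, with DESeq2 618 and 510, and with the likelihood ratio test 617 and 481. With 1 sample left out, 0 to 1 members and 1 to 3 pathway genes were called lower, and 5 to 6 pathway genes higher. Over all genes 347 to 452 were then higher and 199 to 303 lower, the fewest lower without S2. The log2 fold change changed sign with 1 sample left out for *Notch3* (-0.40 to 0.036), *Notch4* (-0.42 to 0.25) and *Nrarp* (-0.91 to 0.13), and for *Notch4* with GC content offsets (0.023). The median of all genes was -0.04 to -0.01 under the scalings. *Notch3* rested on 9 to 41 counts a sample. The causes of these changes were not tested.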
